A study of Mus musculus with 20 samples.

Results

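This account follows 10 genes of lipid binding, storage and efflux (Fabp4, Fabp5, Lpl, Pparg, Nr1h3, Abca1, Abcg1, Abca9, Plin2 and Apoe) in bone marrow progenitors of wild-type mice and of mice with floxed Rptor alleles. The genes were chosen by symbol with earlier results of the same arrays in view, so their selection is no evidence for a difference. The p-values given for them below come from those arrays and are not independent of the choice. They are 10 of 22180 genes with a probe set annotated to 1 gene symbol, and a gene with several such probe sets is represented by the one with the highest mean over all 20 arrays. All 10 passed the filter on dim genes, a mean log2 signal of 3.86 or higher, which left 16638 genes for the tests.

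The mice were female, with a C57BL/6 background, and RNA came from 3 populations of their marrow. Common myeloid progenitors (CMP) can still form red cells and platelets besides myeloid cells, while granulocyte-macrophage progenitors (GMP) are a later step on the granulocyte and monocyte path. Both were lysed after sorting. Lineage-negative marrow cells, a mixed immature fraction (Lin- + MCSF, called Lin- cells below), received macrophage colony-stimulating factor at 10 ng/ml for 12 h in culture. Wild-type (WT) mice were compared with mice carrying CreER, a Cre recombinase fused to an estrogen receptor domain, together with homozygous floxed Rptor. The study calls this genotype CreER-Rptor-flox/flox, and the samples are labelled CreER-Raptor. There were 3 arrays per genotype for CMP, 3 for GMP and 4 for Lin- cells. The labels give neither the promoter that drives CreER, nor whether and when it was activated, nor whether WT mice carried it. They do not say that replicates came from separate animals, so each p-value refers to the spread among the samples at hand, part of which may be technical.

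Rptor encodes Raptor, the scaffold of the kinase complex mTORC1. Its probe set was not called between genotypes, with differences of -0.29 ± 0.13 log2 units (SE) in CMP, -0.17 ± 0.13 in GMP and -0.18 ± 0.11 in Lin- cells, with limma adjusted p of 0.163, 0.465 and 0.305. Where its probes lie relative to the floxed part was not used here, so this checks no label. Markers of myeloid progenitors (Kit, Cd34, Mpo, Elane, Ctsg, Prtn3 and Myb) had list means from 10.85 to 11.67 in the 6 groups. They also differed by genotype: in CMP Kit was higher (0.42) and Cd34, Mpo, Elane and Prtn3 were lower (-1.08, -0.31, -0.44 and -0.42), in GMP Cd34 was lower (-1.37), and in Lin- cells Kit and Myb were higher (0.99 and 0.37). The median log2 signal per array ran from 4.76 to 4.91, and the number of arrays limits the precision. Values below are deposited log2 signals per array, and differences are CreER-Raptor minus WT in log2 units with the SE of a limma fit over all 20 arrays. A gene is called at a Benjamini-Hochberg adjusted p under 0.05 over all 16638 genes. Signals of different genes come from different probes and are not compared with each other.

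Fatty acids enter a cell from albumin or after lipoprotein lipase has split the triglycerides of lipoproteins. Inside the cell, fatty acid binding proteins carry them, droplets coated by perilipins store them as neutral lipid, and the nuclear receptors PPARγ (Pparg) and LXRα (Nr1h3) respond to fatty acid derivatives and oxysterols. LXR target genes include the cholesterol exporters Abca1 and Abcg1 and the apolipoprotein gene Apoe. Macrophages use these genes to take up, store and export lipid.

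The promoters of Abca1, Plin2 and Abca9 are shown because the first pair of genes was higher in CreER-Raptor CMP and GMP, and Abca9 was lower in all 3 populations. Each line holds the 250 bases before the annotated start, on the gene's own strand, from RefSeq (GRCm38.p6). All 3 genes lie on the minus strand.
Abca1, chr4:53159896-53160145: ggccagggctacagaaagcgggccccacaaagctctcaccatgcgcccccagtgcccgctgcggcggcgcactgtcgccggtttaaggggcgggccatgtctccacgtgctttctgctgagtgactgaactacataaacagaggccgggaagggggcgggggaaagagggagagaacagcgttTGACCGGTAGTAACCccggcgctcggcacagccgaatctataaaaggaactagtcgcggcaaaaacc
Plin2, chr4:86670060-86670309: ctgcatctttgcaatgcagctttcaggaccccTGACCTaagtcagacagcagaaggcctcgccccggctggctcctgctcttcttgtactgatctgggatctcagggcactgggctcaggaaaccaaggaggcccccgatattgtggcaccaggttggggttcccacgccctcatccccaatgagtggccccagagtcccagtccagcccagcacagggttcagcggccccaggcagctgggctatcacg
Abca9, chr11:110168154-110168403: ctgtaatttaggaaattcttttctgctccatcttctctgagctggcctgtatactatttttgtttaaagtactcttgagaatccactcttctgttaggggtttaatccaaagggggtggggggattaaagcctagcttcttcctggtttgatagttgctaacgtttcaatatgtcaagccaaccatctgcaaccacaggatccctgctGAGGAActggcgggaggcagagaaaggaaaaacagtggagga
The capitals in Abca1 mark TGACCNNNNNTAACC, a degenerate direct repeat spaced by 4 bases that begins 67 bases before the start. Those letters were chosen after the window had been read, and 0.0487% of 32851 promoter windows of 300 bases hold them on either strand. The capitals in Plin2 mark the nuclear receptor hexamer AGGTCA on the reverse strand, 218 bases before the start, which 16.3% of the windows hold. The capitals in Abca9 mark GAGGAA, the core letters bound by the myeloid factor PU.1, 42 bases before the start, which 28.3% of the windows hold.

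Promoter windows were found for 6 of the genes, 11 windows in all (Pparg, Nr1h3, Abca1, Abca9, Plin2 and Apoe). Fabp4, Fabp5, Lpl and Abcg1 have no window here. Of the 11 windows, 0 held the exact PPAR repeat AGGTCANAGGTCA or the exact LXR repeat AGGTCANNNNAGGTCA, which 0.0396% and 0.0152% of all windows hold. The single hexamer stood in 3 of the 11 windows (2 of Pparg and the one of Plin2), with overlaps between motifs counted for each motif. The PU.1 core stood in 5, from Pparg, Nr1h3, Abca9 and Apoe, so it was not particular to Abca9. A match says only that these letters are present.

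Fabp4 encodes the fatty acid carrier of adipocytes, macrophages and some endothelial cells. It was higher in CreER-Raptor arrays of every population. In CMP the WT arrays read 3.96, 4.19 and 4.93 and the CreER-Raptor arrays 6.67, 7.54 and 7.76. The 2 sets did not overlap, with a difference of 2.96 ± 0.34, a 7.79-fold higher signal. In Lin- cells the WT arrays read 5.68, 5.35, 5.60 and 6.86 and the CreER-Raptor arrays 7.95, 8.36, 7.52 and 7.95, again without overlap, and the difference was 2.07 ± 0.29. These 2 differences were among the 10 largest rises known when the genes were chosen and are given as a description with no test.

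In GMP, Fabp4 read 4.13, 4.78 and 4.44 on WT arrays and 5.60, 5.96 and 6.27 on CreER-Raptor arrays. All 3 CreER-Raptor arrays stood above all WT arrays. The difference of 1.49 ± 0.34, or 2.81-fold, passed the test (limma adjusted p = 0.00476). The GMP difference minus the CMP one was -1.47 ± 0.48, and the Lin- one minus the GMP one was 0.58 ± 0.45. These carry no test, since the CMP and Lin- differences were known to be large when the genes were chosen. Ordered by group mean, Fabp4 was highest in CreER-Raptor Lin- cells (7.95 ± 0.34, SD, n = 4) and CreER-Raptor CMP (7.32 ± 0.58, n = 3), whose arrays overlapped. CreER-Raptor GMP (5.94 ± 0.34, n = 3) and WT Lin- cells (5.87 ± 0.68, n = 4) followed and overlapped, and WT GMP (4.45 ± 0.33, n = 3) and WT CMP (4.36 ± 0.51, n = 3) were lowest and overlapped.

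Among all other tested genes, the 3 whose 6 group means, each centred on its own average, lay nearest to those of Fabp4 were Anpep, St6galnac2 and Mt1. Their root mean square distances over the 6 groups were 0.49, 0.64 and 0.65 log2 units. Anpep, which encodes the membrane aminopeptidase CD13, read 5.20 in WT and 7.23 in CreER-Raptor CMP, 5.31 and 7.51 in GMP, and 6.44 and 8.83 in Lin- cells. By group mean Anpep was slightly higher in CreER-Raptor GMP than in CreER-Raptor CMP, where Fabp4 had its lower value in GMP.

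**Figure D1:**
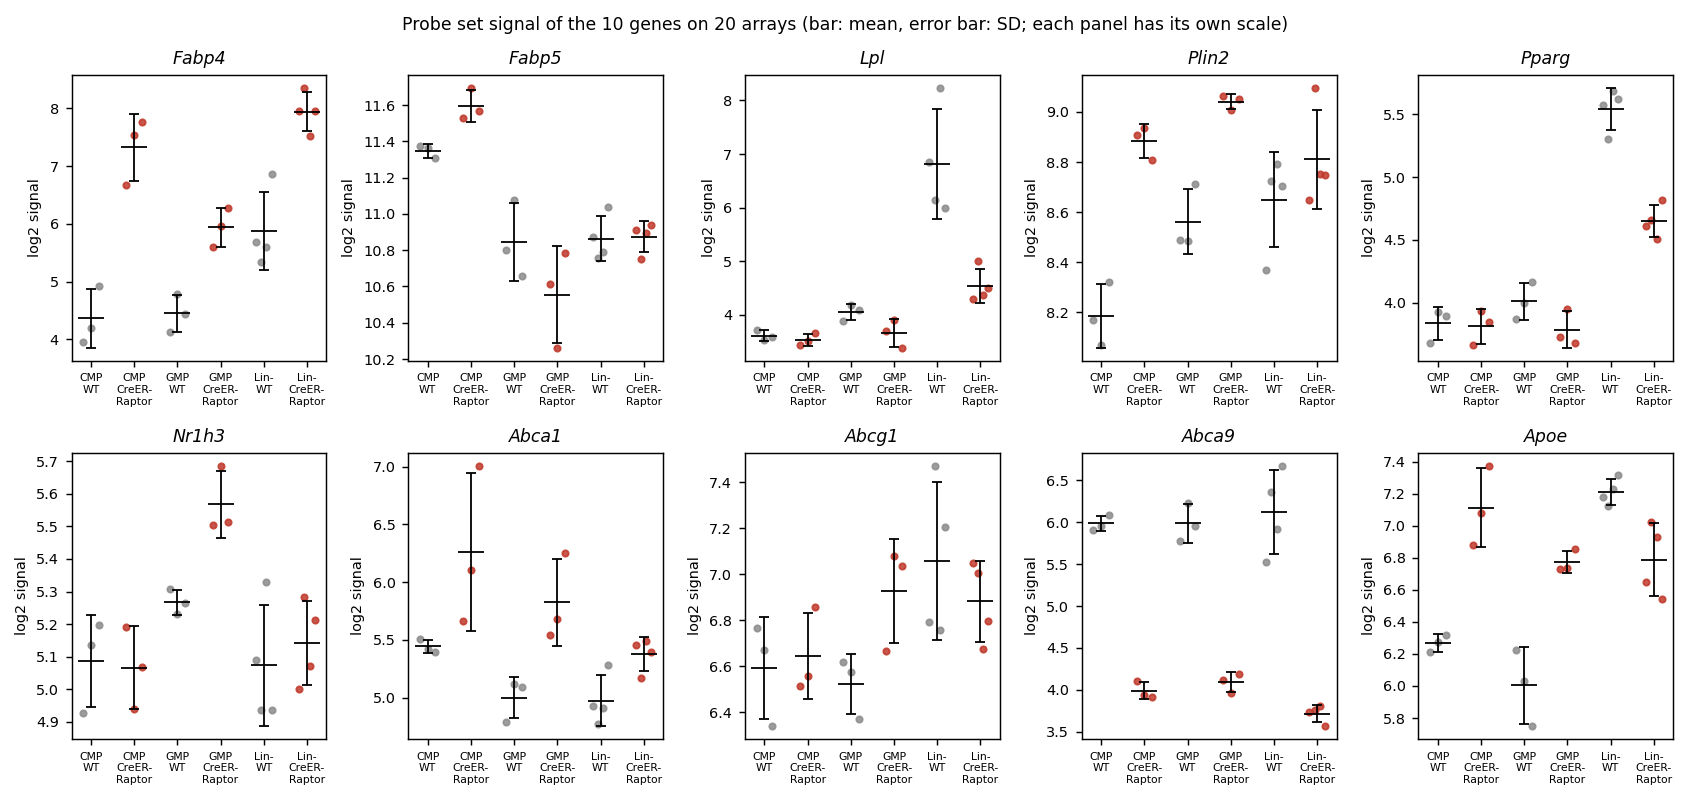
Log2 probe set signal of the 10 genes (y axis, own scale in each panel) on every array of the 6 groups (x axis, WT grey and CreER-Raptor red; bar, mean; error bar, SD). Fabp4 separates the genotypes upward and Abca9 downward in all 3 populations, with CreER-Raptor means of 7.32 and 3.99 in CMP against WT means of 4.36 and 5.99.

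Markers of other cell types were measured beside Fabp4. For the counts that follow, 11.4% of all tested genes were called between genotypes in CMP, 11.9% in GMP and 12.5% in Lin- cells. Of 8 adipocyte markers 7 had a probe set, and their mean level lay between 4.00 and 4.33 on all 20 arrays. The group means of Adipoq, a defining adipocyte gene, ran from 3.16 to 3.37, under the limit for dim genes. The adipocyte marker called between genotypes was Slc36a2, which was lower in CreER-Raptor CMP (-0.41) and GMP (-0.53). Endothelial markers were called in 3 of 7 tested in CMP and 2 of 7 in GMP, all lower in CreER-Raptor arrays, and in 2 of 7 in Lin- cells, both higher. Macrophage markers were called higher in 5 of 10 tested in CreER-Raptor CMP (C1qa, C1qb, Mrc1, Siglec1 and Mertk). In GMP 3 were higher (C1qa, C1qb and Mertk) and 2 lower (Adgre1 and Vcam1), and in Lin- cells 0 were higher and 2 lower (Adgre1 and C1qb). The mean of the macrophage list spanned 4.85 to 5.11 on WT CMP arrays and 5.36 to 5.95 on CreER-Raptor CMP arrays, 5.04 to 5.13 and 5.17 to 5.34 in GMP, and 5.37 to 5.48 and 4.99 to 5.38 in Lin- cells. Erythroid markers were higher in 5, 4 and 5 of 6 tested, and monocyte markers lower in 6, 6 and 7 of 8, in CMP, GMP and Lin- cells. The mean of the erythroid list ran over 8.59 to 8.88 on WT and 10.00 to 10.63 on CreER-Raptor arrays of CMP, 5.29 to 5.66 against 6.19 to 7.54 for GMP and 5.04 to 5.54 against 6.14 to 6.84 for Lin- cells. That of the monocyte list ran over 9.27 to 9.37 on WT and 8.03 to 8.22 on CreER-Raptor arrays of CMP, 9.98 to 10.01 against 8.39 to 8.63 for GMP and 9.95 to 10.17 against 8.48 to 8.70 for Lin- cells. Neutrophil markers were lower in 6 of 9 in CMP (Ltf -3.77, Camp -3.70), 4 lower and 2 higher in GMP, and 1 lower in Lin- cells. Eosinophil markers were lower in 3, 4 and 1 of 4. Of 6 mast cell and basophil markers 1 was lower in CMP, 3 were higher in GMP and 2 lower in Lin- cells. Of 6 T or NK cell markers 1 was higher and 1 lower in CMP, 0 were called in GMP and 3 were higher in Lin- cells. Of 5 megakaryocyte markers 0, 1 and 3 were higher, of 4 B cell markers 1, 1 and 0 were lower, and of 5 marrow stromal markers 0 were called in each population. In these bulk samples fewer cells of a type and less RNA per cell cannot be told apart, and the part of these cell types in any result here was not tested.

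Fabp5 encodes the epidermal fatty acid binding protein, which is found in many tissues and in macrophages. It did not pass between genotypes in any population. Its chosen probe set read 11.35 ± 0.04 (SD, n = 3) in WT CMP and 11.60 ± 0.09 in CreER-Raptor CMP, 10.85 ± 0.21 and 10.55 ± 0.27 in GMP, and 10.86 ± 0.13 and 10.87 ± 0.08 (n = 4) in Lin- cells. The differences were 0.25 (95% interval -0.01 to 0.51, limma adjusted p = 0.268), -0.29 (-0.56 to -0.03, adjusted p = 0.159) and 0.01 (-0.22 to 0.24, adjusted p = 0.969). CreER-Raptor arrays lay above all WT arrays in CMP, and the genotypes overlapped in GMP and Lin- cells. Fabp4 and Fabp5 are close neighbours in the RefSeq gene order, with Pmp2 and Fabp9 between them and Fabp12 and Impa1 on the other side of Fabp4. Pmp2 and Fabp9 were too dim to test, and Fabp12 differed by -0.03, 0.01 and 0.06 without passing (limma adjusted p = 0.964, 0.98 and 0.845). Impa1, an inositol monophosphatase gene, was lower in GMP (-0.42, limma adjusted p = 0.0108). Further out, Pag1 was higher in GMP (0.83, limma adjusted p = 0.0205). Zfp704 (0.47, adjusted p = 0.00377) and Zfand1 (0.45, adjusted p = 0.0267) were higher in Lin- cells. These neighbours were looked up after the values of Fabp4 had been seen.

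The 4 probe sets annotated to Fabp5 disagreed between populations, though none was called between genotypes. The chosen probe set (17548238) and probe set 17548717 were lower in WT Lin- cells than in WT CMP, at -0.48 and -0.50. Probe set 17404073 read 3.83 in WT CMP, 4.08 in WT GMP and 9.30 in WT Lin- cells, so that it was 5.46 higher in Lin- cells than in CMP (limma adjusted p = 6.4e-19). Probe set 17396056 differed by 0.25 in the same comparison (adjusted p = 0.146). The mouse genome holds near-identical pseudogene copies of Fabp5, so which transcripts each probe set reads is uncertain, and the direction between populations is not settled by these arrays.

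**Figure D2:**
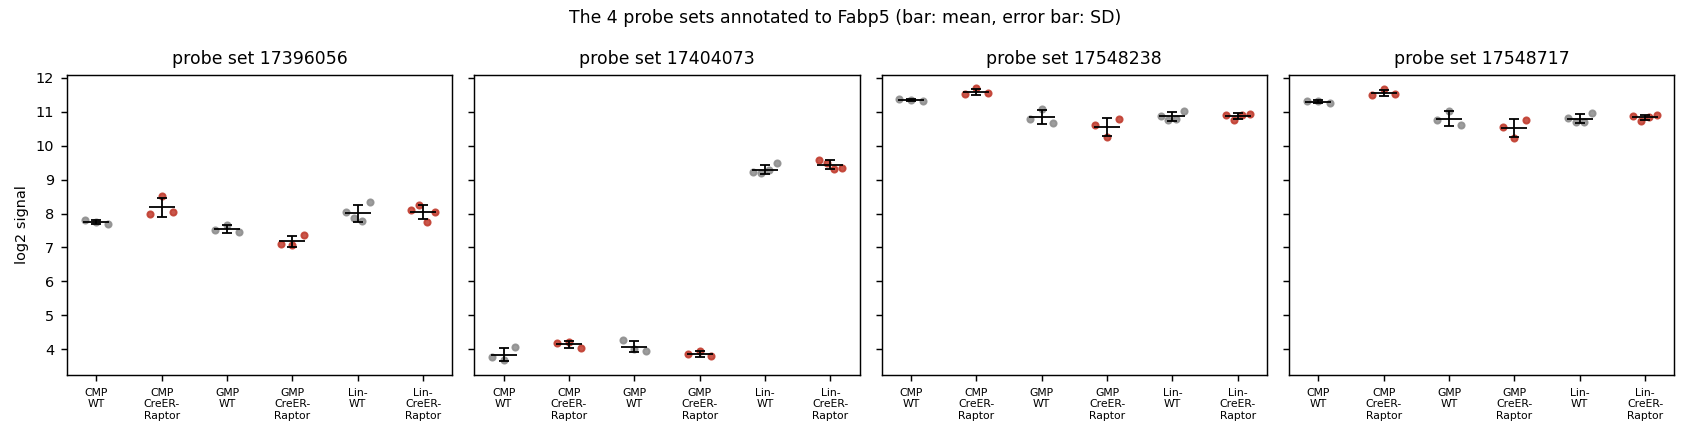
Log2 signal (y axis, shared) of the 4 probe sets annotated to Fabp5 in the 6 groups (x axis, WT grey and CreER-Raptor red; bar, mean; error bar, SD). Probe set 17404073 rises from about 4 log2 units in CMP and GMP to 9.30 and 9.43 in Lin- cells, while 17548238 and 17548717 do not.

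Lpl encodes lipoprotein lipase, a secreted enzyme of macrophages, muscle and fat. It was highest in WT Lin- cells and lower in CreER-Raptor Lin- cells. The WT arrays read 6.86, 6.15, 8.24 and 5.99 and the CreER-Raptor arrays 4.30, 5.00, 4.37 and 4.50. The lowest WT array stood above the highest CreER-Raptor array, while the WT arrays spread widely (SD 1.03). The difference was -2.27 ± 0.31, a 4.81-fold higher signal in WT (limma adjusted p = 3.5e-05), and it was -1.79 without the highest WT array, replicate 3. The second Lpl probe set gave -2.53 ± 0.28 (adjusted p = 2.92e-06).

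In CMP and GMP, Lpl lay by group mean under the limit for dim genes (3.86), except in WT GMP, just above it. It passed the filter by its mean over all 20 arrays (4.50), which the Lin- arrays raised. It read 3.61 ± 0.10 (SD, n = 3) in WT and 3.54 ± 0.12 in CreER-Raptor CMP, and 4.05 ± 0.15 and 3.67 ± 0.26 in GMP. The genotype differences, -0.08 and -0.39, did not pass (limma adjusted p = 0.95 and 0.583), and at such dim signals a change in RNA may not show. The second probe set read 3.09 in WT and 3.12 in CreER-Raptor CMP, and 3.08 and 3.11 in GMP. Its genotype difference was 0.03 in CMP and 0.03 in GMP, so the -0.39 of the chosen probe set was not repeated. The Lin- genotype difference minus the CMP one was -2.19 ± 0.47 (limma adjusted p = 0.00419), and minus the GMP one -1.88 ± 0.47 (adjusted p = 0.021). The second of these was lost without WT GMP replicate 1 (0.0587), without CreER-Raptor GMP replicate 2 (0.0666) and with only the compared groups fitted (0.0593). With Lpl this dim in CMP and GMP, both tests largely repeat the Lin- difference. They cannot show whether the genotype effect on Lpl differs between populations.

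The genes with group means nearest to those of Lpl were Il1b, Slc15a3 and Ly6i, at root mean square distances of 0.22, 0.23 and 0.24. Il1b, the gene of the cytokine interleukin-1 beta, read 7.55 in WT and 4.96 in CreER-Raptor Lin- cells and between 4.14 and 4.65 in the other groups.

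Pparg encodes the nuclear receptor that drives fat cell formation and lipid uptake genes in macrophages. As for Lpl, the highest group was WT Lin- cells, the next was CreER-Raptor Lin- cells, and these were separate from each other and from the 4 overlapping CMP and GMP groups. The WT Lin- arrays read 5.58, 5.30, 5.68 and 5.62 and the CreER-Raptor Lin- arrays 4.61, 4.66, 4.51 and 4.82, with no overlap and little spread. The difference was -0.90 ± 0.11, a 1.86-fold higher signal in WT (limma adjusted p = 7.84e-06). CMP and GMP means lay between 3.79 and 4.01, close to the limit for dim genes, with genotype differences of -0.02 and -0.22 that did not pass (adjusted p = 0.959 and 0.293). Set against CMP, the genotype difference in Lin- cells was lower (-0.87 ± 0.16, limma adjusted p = 0.0013), and likewise against GMP (-0.67 ± 0.16, adjusted p = 0.0176). The latter was lost without WT GMP replicate 1 (0.0637) or CreER-Raptor GMP replicate 2 (0.0666). With Pparg this dim in CMP and GMP, these tests cannot show whether its genotype effect differs between populations. In the same Lin- arrays 7 of 8 monocyte markers were lower in CreER-Raptor cells, with a median difference of -1.09, and 2 of 10 macrophage markers were lower. Their part in the Lpl and Pparg differences was not tested.

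Nr1h3, the gene of the oxysterol receptor LXRα, stayed within a narrow range, with group means from 5.07 to 5.57. The lowest mean was that of CreER-Raptor CMP and the highest that of CreER-Raptor GMP. WT GMP arrays read 5.31, 5.23 and 5.26 and CreER-Raptor GMP arrays 5.50, 5.69 and 5.51. These did not overlap, yet the difference of 0.30 (95% interval 0.06 to 0.55) missed the threshold (limma adjusted p = 0.109). In CMP and Lin- cells the differences were -0.02 (-0.27 to 0.22) and 0.07 (-0.14 to 0.28), with overlapping arrays.

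Abca1 encodes the transporter that loads cholesterol and phospholipid onto lipid-poor apolipoprotein A-I. It was higher in CreER-Raptor CMP and GMP. WT CMP arrays read 5.51, 5.43 and 5.40 and CreER-Raptor CMP arrays 5.67, 6.10 and 7.01. WT GMP arrays read 4.79, 5.12 and 5.09 and CreER-Raptor GMP arrays 5.54, 5.68 and 6.25. The genotypes did not overlap in either population, but replicate 3 of the CreER-Raptor arrays was the highest in both. The differences were 0.82 ± 0.23 in CMP (limma adjusted p = 0.024) and 0.83 ± 0.23 in GMP (adjusted p = 0.0224).

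Both Abca1 calls rested on few arrays. Without CreER-Raptor CMP replicate 3 the CMP difference was 0.44 (limma adjusted p = 0.172), and it was also lost without WT CMP replicate 1 (0.0539), 2 (0.0695) or 3 (0.0774) and with CMP arrays fitted alone (0.0827). The GMP difference was 0.61 without CreER-Raptor GMP replicate 3 (0.118) and 0.72 without WT GMP replicate 1 (0.104). In Lin- cells Abca1 read 4.97 ± 0.22 (SD, n = 4) in WT and 5.38 ± 0.14 in CreER-Raptor cells, with overlapping arrays and a difference of 0.40 (95% interval -0.02 to 0.82) that did not pass (adjusted p = 0.213). Over the 6 groups Abca1 was highest in CreER-Raptor CMP (6.26) and GMP (5.83), which overlapped, and lowest in WT GMP (5.00) and WT Lin- cells (4.97), which also overlapped. The genotype differences of Abca1 were not shown to differ between populations (adjusted p from 0.529 to 0.995).

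Abcg1 encodes the transporter that moves cholesterol to high-density lipoprotein particles. It was not called between genotypes, with differences of 0.05 in CMP (95% interval -0.31 to 0.41), 0.40 in GMP (0.04 to 0.77) and -0.18 in Lin- cells (-0.49 to 0.14) (limma adjusted p = 0.927, 0.152 and 0.511). In GMP the genotypes were separate, at 6.62, 6.57 and 6.37 in WT and 6.67, 7.08 and 7.04 in CreER-Raptor. Its 6 group means ran from 6.52 in WT GMP to 7.06 in WT Lin- cells, and the arrays of each group overlapped those of the next in that order.

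Abca9, a member of the ABCA subfamily known to respond to cholesterol in macrophages, had lower signals in CreER-Raptor arrays of all 3 populations. WT CMP arrays read 5.91, 5.96 and 6.09 and CreER-Raptor CMP arrays 4.11, 3.94 and 3.92, a difference of -2.00 ± 0.19. It was among the 10 largest falls known when the genes were chosen and has no test here. WT GMP arrays read 5.78, 6.23 and 5.95 and CreER-Raptor GMP arrays 4.12, 3.96 and 4.19. WT Lin- arrays read 5.53, 6.36, 5.92 and 6.67 and CreER-Raptor Lin- arrays 3.73, 3.76, 3.81 and 3.57. No CreER-Raptor array of any population reached the lowest WT array. The signal was 3.72-fold higher in WT GMP (difference -1.90 ± 0.19, limma adjusted p = 5.13e-07) and 5.28-fold higher in WT Lin- cells (-2.40 ± 0.17, adjusted p = 2.31e-09). By size these ranked 39 and 14 among the falls of their populations. They too were known when the genes were chosen, so their p-values are no independent support.

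The 3 WT groups held Abca9 at 5.99, 5.99 and 6.12 with overlapping arrays, and the CreER-Raptor groups at 3.99, 4.09 and 3.72, close to the limit for dim genes, so the folds may understate the change. The genes next to Abca9 in the RefSeq order, looked up after its values were seen, are other ABCA genes. Abca8a and Abca8b were too dim to test, and Abca6 (group means from 3.77 to 4.10) and Abca5 (4.06 to 4.30) were not called in any population (adjusted p from 0.219 to 0.966). The group means nearest to those of Abca9 belonged to Bmx, Ms4a6c and Depdc7, at distances of 0.40, 0.41 and 0.42. Bmx encodes a cytoplasmic tyrosine kinase, and Ms4a6c stood on the monocyte marker list, where 6, 6 and 7 of 8 genes were lower in CreER-Raptor CMP, GMP and Lin- cells.

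Plin2 encodes a perilipin that coats lipid droplets in most cell types. It was higher in CreER-Raptor CMP and GMP. WT CMP arrays read 8.17, 8.07 and 8.32 and CreER-Raptor CMP arrays 8.91, 8.94 and 8.81. WT GMP arrays read 8.49, 8.49 and 8.71 and CreER-Raptor GMP arrays 9.06, 9.01 and 9.05. The genotypes were separate in both populations. The differences were 0.70 ± 0.12 in CMP, or 1.62-fold (limma adjusted p = 0.000453), and 0.48 ± 0.12 in GMP, or 1.39-fold (adjusted p = 0.0132). The GMP call was lost without WT GMP replicate 1 (0.0619) or 2 (0.0678).

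In Lin- cells the Plin2 arrays overlapped, at 8.37, 8.73, 8.79 and 8.71 in WT and 8.65, 9.10, 8.75 and 8.75 in CreER-Raptor, and the difference of 0.16 (95% interval -0.06 to 0.39) did not pass (limma adjusted p = 0.366). The Lin- difference minus the CMP difference was -0.54 ± 0.16 (limma adjusted p = 0.0496). That call was lost when any of 11 of the 14 arrays was left out and under 4 of 9 other settings. Plin2 ran highest in CreER-Raptor GMP (9.04), above all arrays of CreER-Raptor CMP (8.88). Its arrays overlapped from CreER-Raptor CMP through both Lin- groups (8.81 and 8.65) to WT GMP (8.56), and WT CMP (8.19) stood lowest and apart.

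Apoe encodes apolipoprotein E, which macrophages secrete and which carries exported cholesterol. Its genotype difference went in opposite directions in the fresh progenitors and in Lin- cells. WT CMP arrays read 6.21, 6.27 and 6.32 and CreER-Raptor CMP arrays 6.88, 7.08 and 7.37. WT GMP arrays read 6.23, 6.03 and 5.75 and CreER-Raptor GMP arrays 6.73, 6.74 and 6.85. Every CreER-Raptor array exceeded every WT array of its population, by 0.84 ± 0.14 on average in CMP (1.80-fold, limma adjusted p = 0.000206) and 0.77 ± 0.14 in GMP (1.71-fold, adjusted p = 0.00064). In Lin- cells WT arrays read 7.18, 7.12, 7.23 and 7.32 and CreER-Raptor arrays 6.65, 7.02, 6.93 and 6.54.

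There the WT arrays of Apoe were the higher ones, without overlap. The difference was -0.42 ± 0.12 (limma adjusted p = 0.025). This fall was lost without WT Lin- replicate 4 (0.0645), without CreER-Raptor Lin- replicate 1 (0.0754) or 4 (0.0831), with only Lin- arrays fitted (0.0748) and with array weights (0.0867). The difference between populations was also tested directly. The Lin- genotype difference of Apoe minus that in CMP was -1.27 ± 0.18 (limma adjusted p = 0.00011), and minus that in GMP -1.20 ± 0.18 (adjusted p = 0.000408), and both kept their call with each array left out in turn and under the 9 other settings. The macrophage marker list had median differences of 0.50, 0.39 and -0.18 in CMP, GMP and Lin- cells. In CMP 5 of 10 were called, all higher. In GMP C1qa, C1qb and Mertk were higher (0.63, 1.46 and 0.63), and Adgre1 and Vcam1 lower (-1.06 and -1.01). In Lin- cells 0 were called higher, and Adgre1 and C1qb were lower (-1.49 and -0.72). Their part in the Apoe result was not tested. Ordered by group mean, Apoe ran from WT Lin- cells (7.21) over CreER-Raptor CMP (7.11) and Lin- cells (6.79) to CreER-Raptor GMP (6.78), each overlapping the next. WT CMP (6.27) and WT GMP (6.00) lay below all of these and overlapped.

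Next to Apoe in the RefSeq order lie the apolipoprotein genes Apoc1, Apoc4 and Apoc2, looked up after the values of Apoe were seen. Apoc2, which encodes the activator of lipoprotein lipase, read 8.30 in WT and 5.92 in CreER-Raptor Lin- cells, a difference of -2.37 ± 0.16 (limma adjusted p = 9.77e-10). Apoc1 differed there by -0.54 ± 0.11 (adjusted p = 0.00259). In CMP and GMP, where Apoe was higher, Apoc2 differed by 0.06 and 0.14 and Apoc1 by -0.15 and -0.13, and none of these passed (adjusted p from 0.599 to 0.913). Apoc4 had no probe set with its single symbol. The adjacent gene on the other side, Tomm40, was not called in any population, nor were Nectin2, Bcam and Cblc beyond it. Further out, Clptm1 was higher in CreER-Raptor CMP (0.36, limma adjusted p = 0.013) and Bcl3 in CreER-Raptor GMP (0.69, adjusted p = 0.00429).

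**Figure D3:**
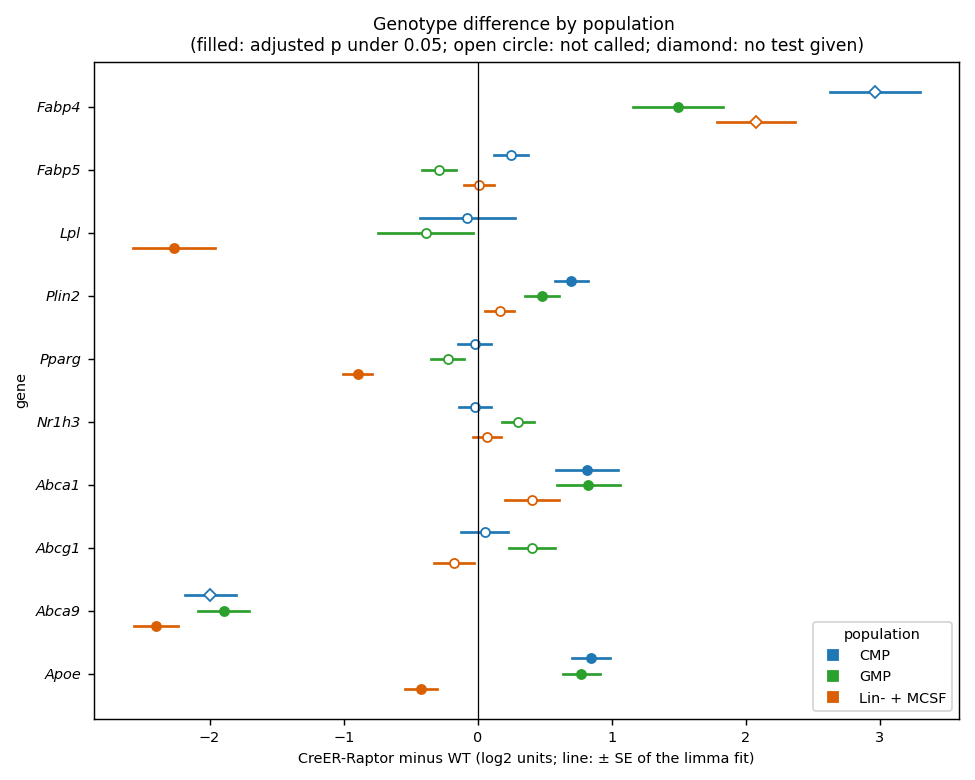
Genotype difference of each of the 10 genes (x axis, log2 units, CreER-Raptor minus WT; line, ± SE of the limma fit) in CMP, GMP and Lin- cells. Filled circles were called, open circles were not, and diamonds carry no test; Apoe lies at 0.84 and 0.77 in CMP and GMP and at -0.42 in Lin- cells.

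Of the 8 genes that carry a test in CMP, 3 were called, all higher (Abca1, Plin2 and Apoe). In GMP all 10 carry a test and 5 were called, 4 higher (Fabp4, Abca1, Plin2 and Apoe) and 1 lower (Abca9). In Lin- cells 4 of 9 were called, all lower (Lpl, Pparg, Abca9 and Apoe). Over all tested genes 11.4% were called in CMP (6.01% higher, 5.44% lower), 11.9% in GMP (4.37% higher, 7.53% lower) and 12.5% in Lin- cells (6.82% higher, 5.73% lower). Because the genes were chosen with these comparisons known, nothing is read from the gap between the counts. The median difference over the 10 genes was 0.15, 0.35 and -0.08, against -0.01, 0.02 and 0.01 over all tested genes. The genotypes were separate on all arrays for 6, 7 and 5 of the 10 genes, and for 30.8%, 32.4% and 13.9% of all tested genes. Leaving out 1 array changed the counts over all genes. In CMP the count went from 1905 to 1229 without CreER-Raptor CMP replicate 2, and in GMP from 1980 to 1183 without WT GMP replicate 2 and to 1256 without CreER-Raptor GMP replicate 2.

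Genotype differences were compared between populations for the genes with no untested value in either. For GMP against CMP limma called 0 of 8, with 1 at an unadjusted p under 0.05 (Fabp5), where 2.5% of all genes were called. With array weights, with the mean of its probe sets or without CreER-Raptor GMP replicate 3, Fabp5 was called there (limma adjusted p = 0.0201, 0.0438 and 0.0474). For Lin- cells against CMP 4 of 8 were called (7.77% of all genes), and against GMP 3 of 9 (4.77% of all). In each the genotype difference, not the signal itself, was lower in Lin- cells. Lpl and Pparg are among the called genes in both, and were too dim in CMP and GMP to show a fall there. Over all genes the count for GMP against CMP was 416 and became 228 without CreER-Raptor CMP replicate 2, 245 and 276 without WT GMP replicate 2 and 1, 265 without WT CMP replicate 3 and 647 without CreER-Raptor CMP replicate 3. That for Lin- cells against GMP went from 793 to 488 without WT GMP replicate 2.

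The WT groups were also compared between populations. Gate, culture and M-CSF cannot be told apart in this comparison, and it shares its WT Lin- arrays with the genotype comparison above. Relative to WT CMP, 7 of the 10 genes were called, 6 higher and 1 lower, where 55.6% of all genes were called, so the count is near the background. Lpl was higher by 3.19 ± 0.33 (9.16-fold, limma adjusted p = 4.87e-08), Pparg by 1.71 ± 0.12 (adjusted p = 8.65e-11), Fabp4 by 1.51 ± 0.31 (adjusted p = 0.000338) and Apoe by 0.94 ± 0.13 (adjusted p = 2.84e-06). Plin2 was higher by 0.46 ± 0.12 (adjusted p = 0.00192) and Abcg1 by 0.47 ± 0.16 (adjusted p = 0.0189). The Abcg1 call was lost without WT Lin- replicate 2 (0.0794) or 4 (0.0506), without WT CMP replicate 3 (0.121) and with only the compared groups fitted (0.0563).

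Fabp5 was the called gene that was lower in that comparison, subject to the disagreement of its probe sets. The median of all tested genes was itself -0.14 in WT Lin- cells against either progenitor, so the rises are larger relative to it. Relative to WT GMP, 5 were called, all higher (Lpl 2.76, Pparg 1.53, Fabp4 1.42, Apoe 1.21 and Abcg1 0.54), where 56.3% of all genes were called. Between WT GMP and WT CMP 1 of the 10 was called, against 11% of all genes. The count over all genes there, 1831, became 803 without WT GMP replicate 3, 1136 without WT GMP replicate 1, and 1139 and 1011 without WT CMP replicate 1 and 2. That gene was Fabp5, at -0.50 ± 0.13 (limma adjusted p = 0.0131), a call lost without WT GMP replicate 1 (0.0524) or 3 (0.104) and with the mean of its probe sets (0.193). Abca9 and Nr1h3 were not called between any of the WT populations.

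Other genes of the same processes were counted from 6 lists that do not include the 10 genes and were written with earlier results known. Over all tested genes 11.4% were called in CMP (6.01% higher, 5.44% lower). In GMP it was 11.9% (4.37% and 7.53%) and in Lin- cells 12.5% (6.82% and 5.73%). Several list counts lie near these shares, and nothing about a process is read from the counts. Among fatty acid binding, uptake and activation genes, 16 were tested. Of these 1 was higher and 1 lower in CreER-Raptor CMP, 0 and 2 in GMP, and 0 and 4 in Lin- cells. Dbi, the acyl-CoA binding protein gene, was lower in all 3 (-0.64 ± 0.10, -0.40 ± 0.10 and -0.26 ± 0.08, limma adjusted p = 8.25e-05, 0.00793 and 0.0434). Cd36, the fatty acid and scavenger receptor gene, was lower in Lin- cells (-2.06 ± 0.33, adjusted p = 0.000221), where Acsl5 (-0.33) and Fabp7 (-0.41) were also lower. The fatty acid ligase gene Acsl6 was higher in CMP (0.58) and Acsl4 lower in GMP (-0.41). The list's median differences were -0.04, -0.04 and -0.02.

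Among 25 tested genes of lipid droplets and neutral lipid storage, 5 were higher and 0 lower in CreER-Raptor CMP, 4 and 2 in GMP, and 3 and 0 in Lin- cells. Dgat2, the enzyme of the last step of triglyceride synthesis, was higher in all 3 populations, by 1.18 ± 0.30, 2.02 ± 0.30 and 1.12 ± 0.26 (limma adjusted p = 0.0103, 6.35e-05 and 0.00578), with overlapping arrays in Lin- cells. The phosphatidate phosphatase genes Lpin1 (1.08 ± 0.13) and Lpin2 (0.72 ± 0.13) and the monoglyceride lipase gene Mgll (1.01 ± 0.26) were higher in CMP. In GMP the droplet coat gene Plin3 (0.85 ± 0.18) and the droplet budding gene Fitm2 (0.58 ± 0.13) were higher and Lipa, the lysosomal acid lipase gene, was lower (-0.70 ± 0.12). In Lin- cells G0s2 (0.67) and Hilpda (0.53), both inhibitors of triglyceride breakdown, were higher. The list's median differences were -0.03, 0.10 and 0.07, close to those of all tested genes.

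Among 23 tested genes of lipoproteins, lipases and their receptors, 1 was higher and 1 lower in CMP, 2 and 0 in GMP, and 0 and 6 in Lin- cells. Lrp1, a large receptor that binds apolipoprotein E, was higher in CreER-Raptor CMP (0.67 ± 0.13, limma adjusted p = 0.00102) and GMP (0.85 ± 0.13, adjusted p = 9.52e-05) and lower in Lin- cells (-0.78 ± 0.11, adjusted p = 6.49e-05), as was seen for Apoe. The scavenger receptor gene Msr1 was lower in Lin- cells (-4.56 ± 0.18), and so was Scarb1, the high-density lipoprotein receptor gene (-0.61 ± 0.10). Olr1, a receptor of oxidized low-density lipoprotein, was lower in CMP (-1.56 ± 0.24), and Lipg, the endothelial lipase gene, was higher in GMP (2.74 ± 0.25). The list's median differences were -0.02, 0.11 and -0.07.

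Among 13 other tested ABC transporters of subfamilies A and G, 3 were higher and 1 lower in CMP, 1 and 2 in GMP, and 2 and 0 in Lin- cells. Abcg4, a relative of Abcg1, was higher in CMP (1.45 ± 0.26, limma adjusted p = 0.000553), as was the xenobiotic and porphyrin transporter gene Abcg2 (0.84 ± 0.23). Abca3 was higher in CMP (0.84 ± 0.14) and lower in GMP (-0.70 ± 0.14). Abca7 was lower in CMP (-0.41) and GMP (-0.42), Abca13 higher in GMP (0.85), and Abca2 (0.36) and Abca4 (0.30) higher in Lin- cells. None of these shared the fall of Abca9 in all 3 populations. The list's median differences were -0.03, 0.02 and 0.10.

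Among 22 tested receptors, partners and target genes of PPAR, LXR and RXR, 3 were higher and 0 lower in CMP, 2 and 1 in GMP, and 2 and 0 in Lin- cells. These counts are near the shares called over all tested genes. Cpt1a, which admits fatty acids to mitochondria, was higher in CMP (0.72 ± 0.14) and GMP (0.74 ± 0.14), and the coactivator gene Ppargc1b in CMP (0.75 ± 0.15). Mylip, an LXR target that degrades the low-density lipoprotein receptor, was higher in GMP (0.72 ± 0.13) and Smpdl3a was lower there (-0.53 ± 0.11). Tgm2 was higher in CMP (0.78) and Lin- cells (1.08), and the desaturase gene Scd1 in Lin- cells (0.48). The list's median differences were 0.12, 0.02 and 0.07.

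Among 16 tested genes of cholesterol handling inside the cell, 1 was higher and 5 lower in CMP, 0 and 3 in GMP, and 2 and 2 in Lin- cells. Stard4, a sterol carrier, was lower in all 3 populations (-0.64 ± 0.12, -1.06 ± 0.12 and -0.56 ± 0.10, limma adjusted p = 0.000798, 2.31e-06 and 0.00105). Insig1, which retains sterol sensors in the endoplasmic reticulum, was lower in CMP (-0.56) and GMP (-1.00), and Npc2, a lysosomal cholesterol carrier, in GMP (-0.53). Cyp27a1, which makes an oxysterol ligand of LXR, was lower in CMP (-0.80) and Lin- cells (-1.17). Osbpl1a was higher in CMP (0.43) and Lin- cells (0.42), and Gramd1b, a sterol transfer gene, in Lin- cells (0.45). The list's median differences were -0.08, -0.09 and -0.07.

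**Figure D4:**
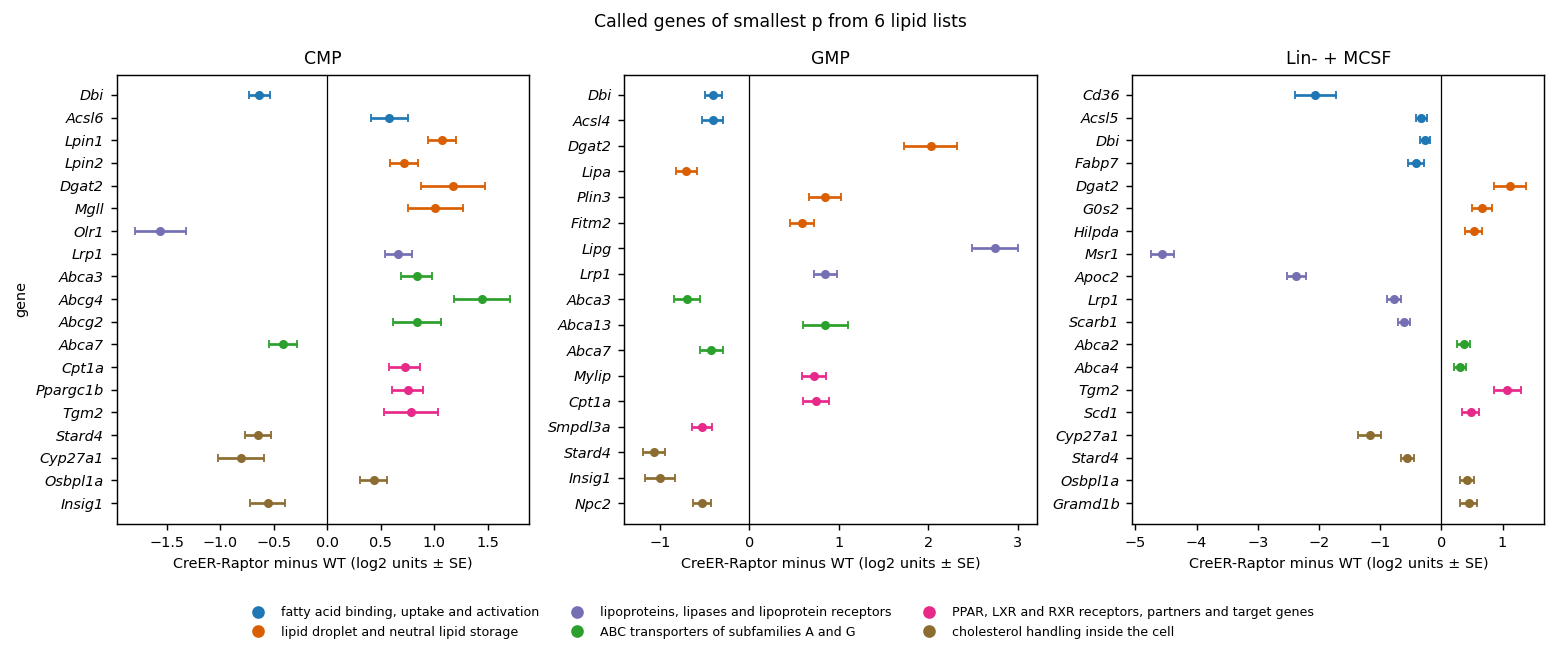
Genotype differences (x axis, log2 units, CreER-Raptor minus WT, ± SE; scales differ between panels) of up to 4 called genes of smallest p per list in CMP, GMP and Lin- cells, coloured by list. Dgat2 lies to the right of 0 in all 3 panels (1.18, 2.02 and 1.12) and Stard4 to the left (-0.64, -1.06 and -0.56).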

How the data were processed

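Gene arrays of 20 samples were analysed. The values are log2 signals per probe set, deposited by the authors. RMA, Partek 6.6 and limma stand in the submitters' processing notes, with no roles given, and per the labels' protocols 1 to 5 ng of RNA was amplified with the NuGEN Pico v2 kit. Such amplification can compress differences. Background correction and genome build are not given in the sources used here, and detection above background was not analysed here.

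Of 41345 probe sets, 23521 had 1 gene symbol in GEO's platform annotation, 1814 several and 16010 none. The probe set with the highest mean stood for a gene. Genes with a mean under the 25th percentile (3.86) were left out. limma 3.58.1 in R 4.3.3 (lmFit, eBayes) fitted 6 group means to all 20 arrays, with 14 residual degrees of freedom, and the 9 comparisons were adjusted by Benjamini-Hochberg. The script was tested on simulated data. Figures were drawn with matplotlib 3.10.9. Intervals of 95% are unadjusted. Replicate numbers were not used to pair arrays.

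The members and gene lists were chosen with earlier results of these data known. Named were the 10 genes, up to 4 called genes of smallest p per pathway list, and the 3 nearest genes for members whose group means span 2 log2 units or more. Neighbouring genes, single marker genes, further probe sets and the Abca1 motif were chosen after their values or letters were seen. Protein sequences were not analysed here. Alternatives are given in the closing section.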

Additional observations from a re-analysis of the deposited data

Results flagged for a closer look

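The genotype differences of 4 genes differed between populations in a limma test of the difference itself. Lpl differed between Lin- cells and CMP (-2.19, adjusted p = 0.00419) and between Lin- cells and GMP (-1.88, adjusted p = 0.021). Pparg differed in the same pairs of populations (-0.87, adjusted p = 0.0013, and -0.67, adjusted p = 0.0176). In CMP and GMP the group means of both genes lay under the limit for dim genes, except in WT GMP, just above it. A fall there may not show, so for Lpl and Pparg these tests cannot show whether the genotype effect differs between populations. Their calls against GMP were each lost without WT GMP replicate 1 or without CreER-Raptor GMP replicate 2. Apoe differed in the same pairs of populations (-1.27, adjusted p = 0.00011, and -1.20, adjusted p = 0.000408), with a change of direction between the fresh progenitors and Lin- cells. Plin2 differed between Lin- cells and CMP (-0.54, adjusted p = 0.0496), a call lost without any of 11 of the 14 arrays and under 4 of 9 other settings. These tests share arrays with each other and with the genotype comparisons. No array of a Lin- group stood apart from the other 3 by Dixon's test for any of the 10 genes.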

How the results depend on the processing

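Over 90 gene and comparison values, 1619 alternatives were run: 1550 kept direction and call, 44 lost the call, 21 gained it and 4 reversed. The reversals concern Fabp5. WT Lin- minus WT CMP became 1.18 with the mean of its probe sets, 0.25 with probe set 17396056 and 5.46 with 17404073, and WT GMP minus WT CMP became 0.24 with 17404073. With each array left out in turn, 3 to 5 of the 10 genes were called for the GMP genotype difference, where all carry a test. In CMP and Lin- cells such counts would include values given without a test, so none is given. Of the genes called with a test, Abca1 lost its call without any of 4 of the 6 arrays in CMP. In Lin- cells Apoe lost its call without any of 3 of the 8 arrays. Plin2 and Apoe in CMP and Lpl, Pparg and Abca9 in Lin- cells kept theirs. Calls over all genes then ranged from 1229 to 1767 (CMP), from 1183 to 2086 (GMP) and from 1634 to 1910 (Lin- cells). The number of the 10 genes called was 0 to 1 for WT GMP against CMP, 6 to 7 for Lin- cells against CMP and 5 to 6 against GMP. For the genotype differences between populations it was 0 to 1, 3 to 4 and 1 to 3. With the dim filter at the 50th percentile, Lpl, Pparg and Abca9 were not tested. Counts then fell to 2 in Lin- cells (Apoe, and Fabp4, whose value there is given without a test) and 3 for WT Lin- against GMP. They fell to 2 and 1 for Lin- genotype differences against CMP and GMP. The count for WT GMP against CMP was 1, and became 2 with that filter, with a trended robust fit or with median centring, 0 with the mean of probe sets, 4 with only the groups compared and 3 with array weights. The genotype difference of GMP against CMP called 1 gene with the mean of probe sets (Fabp5) and 2 with array weights (Fabp5 and Fabp4). Fabp4 enters that count although its CMP value is given without a test. Same-numbered arrays had correlations of their deviations from -0.344 to 0.119. With 3 or 4 arrays per group these cannot show whether same-numbered samples were prepared together, which the labels do not give. A replicate block left 0 called for WT GMP against CMP, and the Apoe fall in Lin- cells lost its call (adjusted p = 0.0533). Over all genes, the calls in GMP moved from 1980 to 5328 with array weights, from 2088 to 899 in Lin- cells with only the groups compared, and from 1831 to 3995 for WT GMP against CMP with array weights. The causes were not tested. Signals near or under 3.86 limit folds of Lpl, Pparg and Abca9.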
